A study of Mus musculus with 18 samples.

Results

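The 44 genes described here encode the extracellular matrix and the enzymes that remodel it. They were chosen by name, as the genes of the count table whose symbol is on a list of matrix genes, and each of the 44 matched 1 of the 54347 genes in the table. By role they comprise 6 fibrillar collagen chains, 9 basement membrane components, 5 other collagens, 4 elastic fibre components, 4 lysyl oxidases, 3 small leucine-rich proteoglycans, 6 adhesive and matricellular glycoproteins, the calcification inhibitor Mgp, 2 metalloproteinases and 4 tissue inhibitors of metalloproteinases (TIMPs). The experiment was designed to lower a non-coding RNA, Gm15551, in brown adipocytes and measured their transcripts at rest and under adrenergic stimulation. All cells were of 1 line, wt1-SAM, immortalised brown preadipocytes of the mouse with the SAM components for CRISPR activation. The cells were differentiated with rosiglitazone, T3, dexamethasone, insulin, indomethacin and IBMX, and on day 4 they received 1 of 3 locked nucleic acid gapmers (LNAs), which are short antisense oligonucleotides that direct cleavage of the RNA they pair with. The LNA named ctrlA has no target, whereas LNA1 and LNA2 are both directed against Gm15551. On day 7 the cells were harvested, either unstimulated or after 24 h in 1 µM isoproterenol, a β-adrenergic agonist. This gave 6 groups of 3 libraries, numbered replicate 2, 3 and 4 in each group. Whether the numbered replicates came from separate cultures is not given in the sources used here, so p-values measure the spread between these libraries, which may be technical.

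The extracellular matrix is the protein network that cells secrete around themselves. Fibrillar collagens give it tensile strength, and type IV collagen, laminins and nidogens form the basement membrane sheet that encloses each adipocyte, while type VI collagen links that sheet to the fibres outside. Lysyl oxidases cross-link collagen and elastin, metalloproteinases cut matrix proteins, and TIMPs block the metalloproteinases. Adipocytes keep remodelling this matrix as they take up and release lipid.

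The LNA sequences are shown because they define the groups. Each is written 5′ to 3′, with no capitals.
ctrlA: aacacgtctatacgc
LNA1: gatgactgagattaga
LNA2: aagtagcacggcgttg

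Both targeting LNAs pair over their 16 bases with exon 2 of the 535-base Gm15551 transcript, LNA1 at chr3:126667502-126667517 and LNA2 at chr3:126667608-126667623 on the minus strand of GRCm38. The 15 bases of ctrlA have no full match in that transcript. In the annotated transcripts of the 38 matrix genes that could be tested, the longest stretches complementary to an LNA were 10 bases. Introns outside these transcripts, and stretches with a mismatch, were not searched. LNA1 had such a stretch in Fbn1 and Timp4, against 3.13% of the 14936 genes with an annotated transcript, and LNA2 had one in Lamc1, against 0.643%. ctrlA had none in these genes, against 0.435%. Stretches of 11 bases or more were found in 0 of the 38 genes for each of the 3 LNAs.

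Library totals ran from 9167560 to 19723021 counts. Gm15551 itself was barely detected, with 14, 8 and 7 counts in unstimulated ctrlA (replicates 2, 3 and 4), 12, 3 and 3 in unstimulated LNA1 and 13, 3 and 1 in unstimulated LNA2. With isoproterenol it had 9, 2 and 2 counts in ctrlA, 1, 4 and 1 in LNA1 and 4, 5 and 1 in LNA2. A reduction by either LNA was not detected, with log2 fold changes of -0.70 ± 0.59 (SE) for LNA1 and -0.43 ± 0.57 for LNA2 (edgeR without a filter, unadjusted p = 0.240 for LNA1 and 0.449 for LNA2, and 0.175 and 0.317 with the replicate number as a term in the model). At 1 to 14 counts per library, these data could not settle whether the LNAs lowered Gm15551. The study itself reported that both LNAs robustly lowered it on day 7. Adipocyte markers were high, led by Fabp4 with a mean of 11814 CPM (the count scaled to the normalised library total). Elovl3 led the brown adipocyte list with a mean of 289 CPM, while Dio2 had at most 4 counts in any library. Other genes of that list were low. Ucp1 lay between 0.621 and 16.5 CPM (median 5.48), Cidea between 3.40 and 25.4 CPM and Prdm16 between 0.570 and 11.8 CPM. Of the lists for other cell types, the preadipocyte and fibroblast genes summed to 42.6 to 89.7 CPM (Ly6a highest, with Dpp4 at 0 in all libraries), smooth muscle genes to 8.50 to 34.8 CPM (Acta2 highest), endothelial genes to 1.77 to 3.99 CPM (Pecam1 highest), leukocyte genes to 8.23 to 44.3 CPM (Cd68 highest, with Ptprc at most 3 counts), chondrocyte and osteoblast genes to 7.26 to 31.8 CPM (Sox9 highest) and skeletal muscle genes to at most 0.408 CPM (Myh3 highest).

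The 6 libraries of replicate 2 stood apart from the 12 of replicates 3 and 4, and the matrix genes were among the genes that separated them. The 44 genes made up 0.511 to 0.588% of all counts in the replicate 2 libraries and 1.27 to 1.84% in the others. Of the 38 tested genes, 17 were lower in every replicate 2 library than in every other library, against 17.1% of all 14949 genes tested, and 1, Postn, was higher in every one, against 17.4%. The median log2 ratio of replicate 2 over the others was -0.68 for the 38 genes and -0.02 for all genes. Collagen IV α2 (Col4a2) averaged 407 CPM in replicate 2 and 1666 CPM in the others, and fibronectin (Fn1) averaged 83.1 and 278 CPM. Postn, which encodes the matricellular protein periostin, ran the other way at 150 and 43.4 CPM. Mitochondrial transcripts took 7.86 to 9.79% of counts in replicate 2 and 2.56 to 4.97% in the others, ribosomal RNA took 2.88 to 14.3% and 0.285 to 1.04%, and longer genes tended to be lower in replicate 2 (Spearman's rho of exon length with the log2 ratio, -0.34 across the 38 genes and -0.25 across 14936 genes, which are not independent replicates). Among replicates 3 and 4, stimulated LNA2 replicate 3 also stood apart. Its counts differed from replicate 4 of its group with a chi-square per degree of freedom of 36.5. The other groups gave 4.32 to 10.5 between these 2 replicates. That library also held the lowest mitochondrial share, 2.56%. The part of these differences in the results was not tested. Because every group holds 1 library of each number, the split does not separate the groups, but it widens the spread within them. The number of matrix genes called in each comparison is therefore given without and with the replicate number as a term in the model (the replicate block).

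Levels were compared between genes per kilobase of annotated exon. The length of the transcripts present was not measured, so the order depends on the annotated lengths. Col4a1 had the highest level with 337.6 CPM per kb (mean of 18 libraries), followed by the collagen VI chain Col6a1 with 262, the collagen-binding glycoprotein Sparc with 236, Col6a3 with 188.4 and Col4a2 with 188.2. After these came Col6a2 with 79.5 and nidogen-1 (Nid1), which links laminin to collagen IV, with 57.7 CPM per kb. The laminin chains Lamc1 and Lamb1 followed at 39.5 and 34.3, ahead of Col5a2 at 29.8, which was the highest of the fibrillar collagen chains, Lox at 29.2, Bgn at 25.7 and Col1a1 at 22.6 CPM per kb. Because the replicate 2 libraries spread each gene widely (134 to 539 CPM per kb for Col4a1, 133 to 383 for Col6a1), the order among the first 5 does not exceed the spread between libraries. The order also differed with the replicates. In replicate 2 Sparc came first with a mean of 167 CPM per kb, ahead of Col6a1 (146) and Col4a1 (139), and Bgn, Lox and Col5a2 (26.3 to 29.5) stood above Lamc1 and Lamb1 (17.4 and 16.9). In replicates 3 and 4 Col4a1 came first with 437 CPM per kb, ahead of Col6a1 (319.8) and Sparc (270.2). Col4a1 and Col6a3 made up 21.2% and 18.9% of the counts of the 44 genes. The tested genes below 1 CPM per kb were Timp3 (0.924), Col5a3 (0.863), Loxl2 (0.650), nidogen-2 (Nid2, 0.540), Timp4 (0.269) and tenascin C (Tnc, 0.169).

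**Figure D1:**
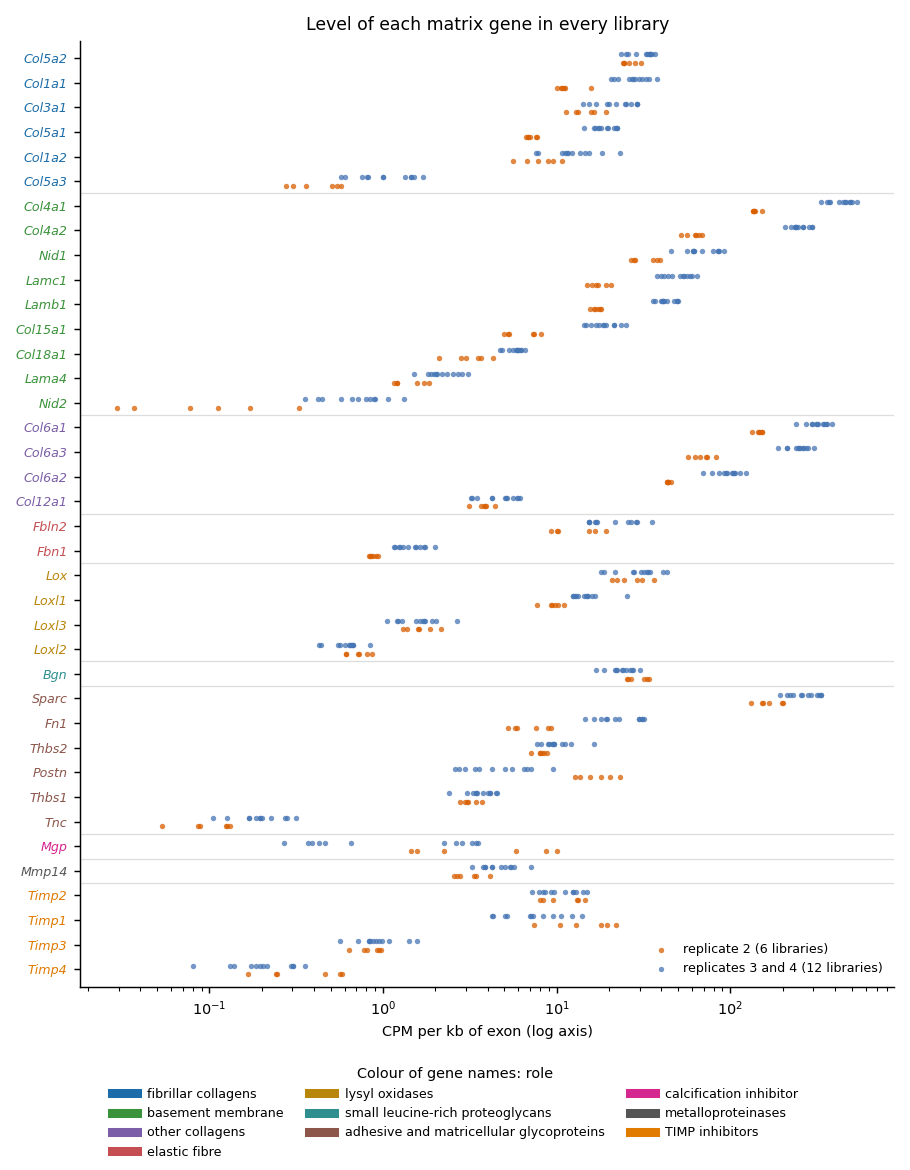
Level of each of the 38 tested matrix genes in every library, as CPM per kb of exon on a log axis, with the names coloured by role and the points by replicate (replicate 2 against replicates 3 and 4). Col4a1, Col6a1, Sparc, Col6a3 and Col4a2 lie furthest to the right, with means of 188.2 to 337.6 CPM per kb, and the replicate 2 points of Col4a1, Col6a1, Col6a3 and Col4a2 lie left of the others, while those of Sparc overlap.

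For 6 of the 44 genes the counts were too low to test. Decorin (Dcn, 0 to 12 counts per library), lumican (Lum, 0 to 2), elastin (Eln, 0 to 4), fibulin-1 (Fbln1, 0 to 5), Mmp2 (0 to 3) and Col8a1 (0 to 13) did not pass the filter on low counts and were not tested. The floor, taken as 3 counts, corresponded to 0.1702 to 0.3063 CPM by library. Mmp14, a membrane-bound collagenase, was thus the only one of the 2 metalloproteinases that could be tested, and Bgn the only one of the 3 proteoglycans.

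Isoproterenol, compared with no stimulation over the 3 LNAs (9 libraries against 9), changed 2 inhibitors of metalloproteinases, a fibulin and Mgp. A gene was called where the adjusted p was below 0.05 and the log2 fold change beyond 0.5 in either direction. Of the 38 genes, 4 were called by edgeR, against 3.20% of all genes tested: Fbln2 and Timp2 rose, and Mgp and Timp4 fell. DESeq2 called 6, against 4.22%, and a test against the fold limit itself (glmTreat) called 1, against 0.957%. With the replicate block 10 were called, against 7.00% of all genes: Fbln2, Timp2, Timp1, Col5a3 and Fn1 rose, and Mgp, Timp4, Nid2, Postn and Col1a2 fell. Without the replicate 2 libraries and with no block, 12 were called, against 4.85%: those 10 together with Mmp14 (higher) and Nid1 (lower). The median log2 fold change of the 38 genes was 0.01, beside -0.002 for all genes, and the log2 fold changes ran from -2.45 to 0.95. The summed level of the 44 genes was lower with isoproterenol in 8 of 9 pairs of libraries with the same LNA and number, by a mean log2 ratio of -0.13 ± 0.12 (SD, n = 9 pairs). In bulk RNA, fewer cells of a type and less RNA per cell cannot be told apart.

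**Figure D2:**
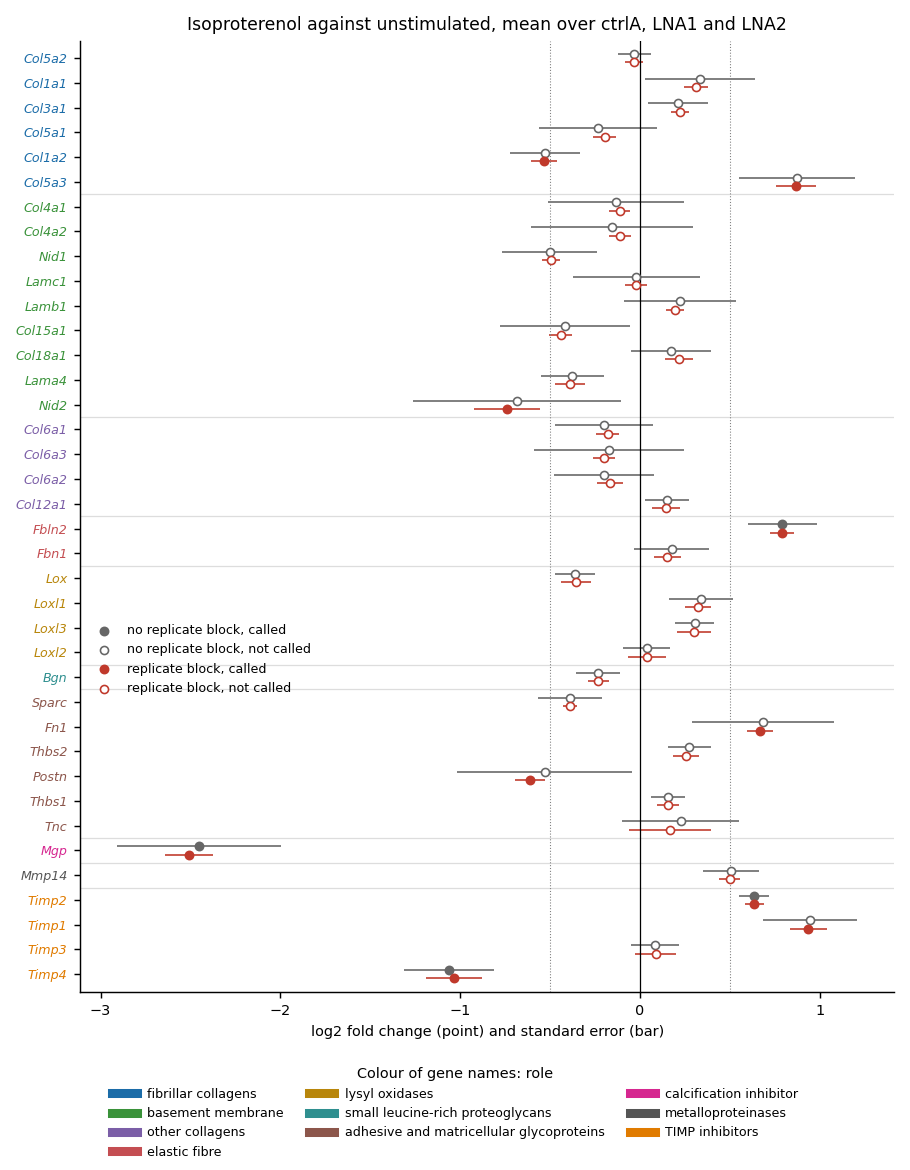
Log2 fold change of each tested matrix gene with isoproterenol, averaged over ctrlA, LNA1 and LNA2 (points, with standard errors as bars), without and with the replicate block. Filled points mark called genes. Mgp lies far to the left at -2.45, and Timp1, Col5a3, Fbln2, Fn1 and Timp2 form the right edge between 0.63 and 0.95.

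Mgp (chr6:136872435-136875823, minus strand) encodes matrix Gla protein, a secreted inhibitor of calcification, and showed the steepest fall of the 38 genes. In unstimulated cells it stood at 10.3, 4.04 and 3.83 CPM with ctrlA, 11.97, 4.17 and 3.36 with LNA1 and 6.94, 3.12 and 2.66 with LNA2 (replicates 2, 3 and 4, as in all such series). With isoproterenol it stood at 2.66, 0.772 and 0.510 CPM with ctrlA, 1.86, 0.436 and 0.318 with LNA1 and 1.71, 0.550 and 0.461 with LNA2. Each stimulated library was below its partner of the same LNA and number, and the highest stimulated value (2.660 CPM) lay just under the lowest unstimulated one (2.661), a full separation that 0.428% of all genes showed in this direction. The log2 fold change was -2.45 ± 0.46 (SE, edgeR adjusted p = 0.0046), and -2.51 ± 0.13 with the block (adjusted p = 1.06e-09). Mean levels fell from 5.60 ± 3.39 to 1.03 ± 0.83 CPM (SD, n = 9). The counts behind these values were 33 to 182 in unstimulated and 4 to 35 in stimulated libraries. Replicate 2 held the highest Mgp value in every group, and without those libraries the log2 fold change was -2.79 (adjusted p = 1.09e-05).

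The TIMPs split in direction. Timp2 (chr11:118301069-118355740, minus strand), an inhibitor of metalloproteinases that also takes part in activation of Mmp2 by Mmp14, stood at 31.1, 37.4 and 33.4 CPM in unstimulated ctrlA, 32.4, 35.9 and 28.0 in LNA1 and 36.9, 32.5 and 30.9 in LNA2. Under isoproterenol the values were 50.8, 58.5 and 48.6 CPM in ctrlA, 51.8, 54.9 and 48.6 in LNA1 and 56.5, 50.2 and 43.7 in LNA2. All stimulated libraries were above all unstimulated ones, as for 0.756% of all genes, and replicate 2 did not stand apart. The rise was 0.63 ± 0.08 on the log2 scale (SE, edgeR adjusted p = 0.000219), from 33.2 ± 3.10 to 51.5 ± 4.54 CPM (SD, n = 9).

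Timp4 (chr6:115241892-115252205, minus strand) is a TIMP known from heart and adipose tissue and ran at a low level. It stood at 3.35, 2.09 and 1.79 CPM in unstimulated ctrlA, 3.40, 1.77 and 1.73 in LNA1 and 2.73, 1.20 and 1.26 in LNA2. In stimulated cells they were 1.44, 1.16 and 0.817 CPM in ctrlA, 0.976, 1.09 and 0.477 in LNA1 and 1.42, 1.02 and 0.769 in LNA2. Each stimulated library was below its partner, although the ranges overlapped. The log2 fold change was -1.06 ± 0.25 (SE, edgeR adjusted p = 0.0227), and -0.86 (adjusted p = 0.0453) without replicate 2. The counts were 17 to 59 in unstimulated and 6 to 19 in stimulated libraries, and 90 exon bases overlap Syn2 on the opposite strand, whose reads cannot be told apart if strand was not used in the quantification.

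Timp1, a secreted inhibitor of metalloproteinases, was between 3.76 and 11.4 CPM in unstimulated cells (median 6.31) and between 6.23 and 19.5 CPM with isoproterenol (median 10.8). It was higher in the stimulated library of each of the 9 pairs, and replicate 2 held the highest values. Its log2 fold change of 0.95 ± 0.26 missed the threshold without the block (SE, edgeR adjusted p = 0.056) and passed it with the block (0.94 ± 0.10, adjusted p = 4.69e-06). Timp3, which binds to the matrix itself, had a log2 fold change of 0.08 ± 0.13 and was higher in 5 of 9 pairs (adjusted p = 0.905, edgeR).

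**Figure D3:**
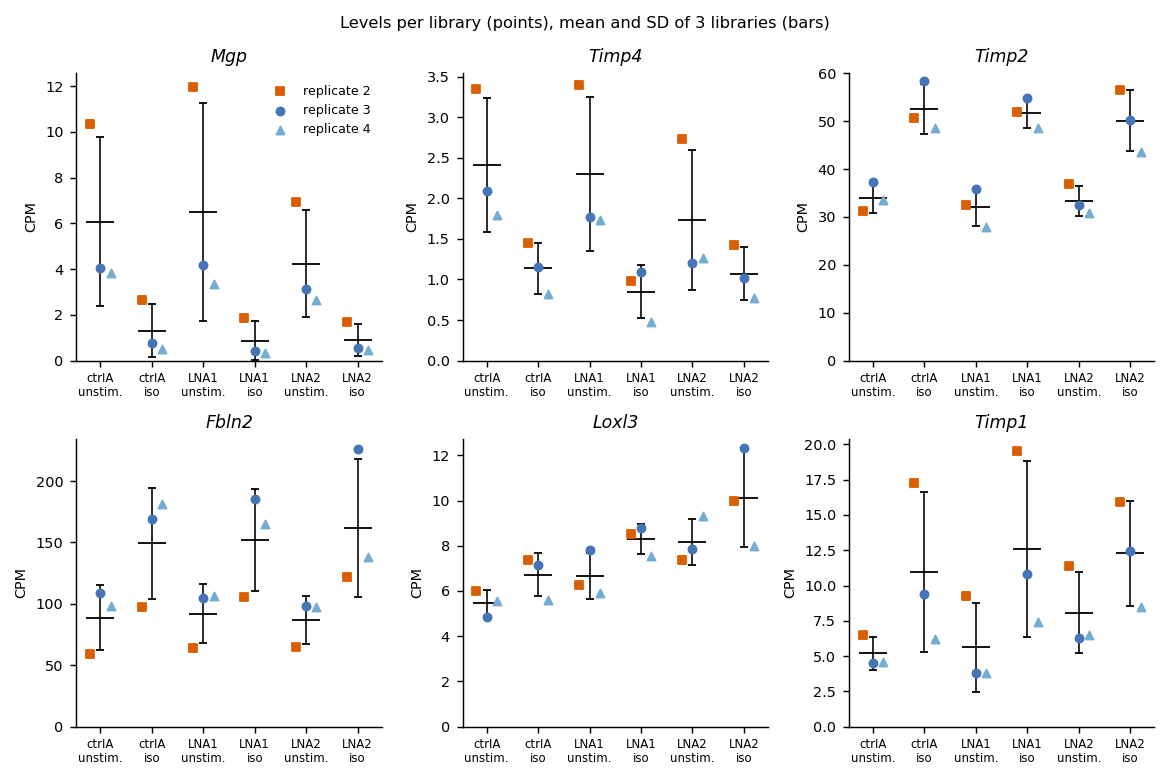
CPM of Mgp, Timp4, Timp2, Fbln2, Loxl3 and Timp1 in each library (points, shaped by replicate) with the mean and SD of the 3 libraries of each group (bars). In all 3 LNA conditions the isoproterenol points of Timp2 (43.7 to 58.5 CPM) lie above the unstimulated ones (28.0 to 37.4 CPM), and those of Mgp lie below.

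Fbln2 (chr6:91212455-91272540, plus strand) encodes fibulin-2, a glycoprotein that bridges elastic fibres and basement membrane. It stood at 58.7, 109 and 98.2 CPM in unstimulated ctrlA, 64.2, 105 and 106 in LNA1 and 64.4, 98.2 and 97.8 in LNA2. After stimulation they were 97.5, 169 and 181 CPM in ctrlA, 105, 186 and 165 in LNA1 and 122, 226 and 138 in LNA2. Within each replicate number all stimulated values exceeded all unstimulated ones, and across numbers the ranges overlapped because replicate 2 was lower. The rise was 0.79 ± 0.19 (log2, SE, edgeR adjusted p = 0.0259), from 89.1 ± 20.5 to 154 ± 42.0 CPM (SD, n = 9). With the block it was 0.79 ± 0.07 (adjusted p = 2.69e-07). The unblocked call was lost on leaving out replicate 3 or 4 of stimulated LNA1, replicate 3 or 4 of stimulated ctrlA, replicate 3 of stimulated LNA2 or replicate 2 of unstimulated LNA2, with adjusted p up to 0.0605, and was kept in the other 12 of 18 such fits. Fibrillin-1 (Fbn1), the microfibril protein, had a log2 fold change of 0.18 ± 0.21 (edgeR adjusted p = 0.842) and was not called with the block either.

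Among the 6 fibrillar collagen chains, 0 were called without the block, against 3.20% of all genes. With the block, where 7.00% of all genes were called, Col5a3 rose and Col1a2 fell. Col5a3, a minor chain of type V collagen, was between 1.87 and 6.77 CPM in unstimulated cells (median 4.11) and between 3.46 and 11.5 CPM with isoproterenol (median 9.12), and was higher in 9 of 9 pairs. Its log2 fold change was 0.87 ± 0.11 with the block (SE, edgeR adjusted p = 2.28e-05) and 0.87 ± 0.32 without (adjusted p = 0.171). Col1a2, the α2 chain of type I collagen, was between 111 and 287 CPM (median 144) without stimulation and between 69.2 and 181 CPM (median 97.1) with it, lower in 9 of 9 pairs. Its log2 fold change was -0.53 ± 0.07 with the block (adjusted p = 4.15e-05) and -0.53 ± 0.19 without (adjusted p = 0.164). Leaving out stimulated LNA2 replicate 4 or stimulated ctrlA replicate 2 took its blocked fold change just inside the limit of 0.5.

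Type I collagen is assembled from 2 α1 chains and 1 α2 chain, and the transcripts of the 2 chains differed in direction. Col1a1 had a log2 fold change of 0.31 ± 0.07 with the block (edgeR adjusted p = 0.00252, under the limit of 0.5) and was higher in 9 of 9 pairs, whereas Col1a2 was lower in all of them. The ratio of Col1a1 to Col1a2 per kb of exon was 0.985 to 2.25 in unstimulated libraries (mean 1.47 ± 0.389, SD, n = 9) and 1.60 to 3.91 with isoproterenol (mean 2.67 ± 0.790), and was higher in each of the 9 pairs. The 2 ranges overlap across replicates. Ratios of chains that assemble together in other collagens were also taken. Col4a1 to Col4a2 was 1.92 ± 0.350 and 1.91 ± 0.282, and Col6a1 to Col6a2 was 3.32 ± 0.144 and 3.29 ± 0.141, each higher with isoproterenol in 4 of 9 pairs. Col5a1 to Col5a2 was 0.528 ± 0.203 and 0.460 ± 0.144, higher in 2 of 9 pairs, and Col6a3 to Col6a1 was 0.673 ± 0.128 and 0.678 ± 0.187, higher in 6 of 9. The size of these ratios depends on the annotated exon lengths, 6563 bases for Col1a1, 12426 for Col1a2, 4380 for Col6a1 and 8326 for Col6a2. The length of the transcripts present was not measured. In counts, Col1a1 to Col1a2 was 0.520 to 2.06 over all libraries and Col6a1 to Col6a2 was 1.62 to 1.83. The direction within a pair of libraries does not depend on the length. These ratios were not tested.

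Col5a2, the fibrillar chain with the highest level, stood at 294, 351 and 329 CPM in unstimulated ctrlA, 250, 341 and 317 in LNA1 and 230, 248 and 241 in LNA2. The stimulated libraries held 269, 331 and 315 CPM in ctrlA, 235, 329 and 326 in LNA1 and 234, 273 and 226 in LNA2. Stimulated and unstimulated libraries overlapped almost fully (log2 fold change -0.03 ± 0.09, edgeR adjusted p = 0.964), and within each replicate number the LNA2 libraries were the lowest. Col3a1 and Col5a1 had blocked log2 fold changes of 0.22 ± 0.05 and -0.19 ± 0.06 (adjusted p = 0.00335 and 0.0347), both under the limit of 0.5.

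Of the 9 basement membrane genes, 0 were called without the block, against 3.20% of all genes, with log2 fold changes of -0.68 to 0.22. With the block, where 7.00% of all genes were called, Nid2 fell. Col4a1 stood at 1140, 3669 and 3656 CPM in unstimulated ctrlA, 1015, 3763 and 4020 in LNA1 and 1003, 2702 and 2806 in LNA2. With isoproterenol it stood at 1004, 3133 and 3336 CPM in ctrlA, 1017, 3392 and 3436 in LNA1 and 1039, 2762 and 2466 in LNA2. Replicate 2 was low in each group, and the stimulated and unstimulated ranges overlapped (log2 fold change -0.13 ± 0.38, adjusted p = 0.96, and -0.11 ± 0.06 with the block, adjusted p = 0.166). The blocked log2 fold change of Nid2 was -0.74 ± 0.18 (SE, edgeR adjusted p = 0.00637). It is a low gene with 2 to 77 counts per library, and 437 of its exon bases overlap Rtraf on the opposite strand. Nid1 was lower in 9 of 9 pairs, from 470 ± 162 to 331 ± 111 CPM (SD), and its blocked log2 fold change of -0.49 ± 0.05 (adjusted p = 3.21e-06) lay at the limit. Lama4 and Col15a1, the laminin α4 chain and a collagen at the edge of the basement membrane, were also lower in 9 of 9 pairs (blocked log2 fold changes -0.39 ± 0.08 and -0.44 ± 0.06), and Lamb1 was higher in 9 of 9 (0.19 ± 0.05).

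In the collagen VI and XII group 0 of 4 genes were called with or without the block, against 7.00% and 3.20% of all genes. Col6a3 stood at 872, 3258 and 3344 CPM in unstimulated ctrlA, 991, 3117 and 3643 in LNA1 and 867, 2543 and 2867 in LNA2. Under isoproterenol the values were 682, 2529 and 2918 CPM in ctrlA, 795, 3148 and 3020 in LNA1 and 752, 2983 and 2245 in LNA2. Replicate 2 was again the low one everywhere, and the stimulated library was lower in 7 of 9 pairs (log2 fold change -0.17 ± 0.42, edgeR adjusted p = 0.952, and -0.20 ± 0.06 with the block, adjusted p = 0.0238). Col6a1, Col6a2 and Col12a1 had blocked log2 fold changes of -0.18, -0.17 and 0.14.

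Of the adhesive and matricellular glycoproteins, 0 of 6 were called without the block, against 3.20% of all genes. With the block, where 7.00% of all genes were called, Fn1 rose and Postn fell. Fn1, which encodes the cell adhesion protein fibronectin, was between 61.6 and 254 CPM in unstimulated cells (median 191) and between 88.7 and 372 CPM with isoproterenol (median 347), and was higher in 9 of 9 pairs. Its log2 fold change was 0.67 ± 0.07 with the block (SE, edgeR adjusted p = 4.25e-06) and 0.68 ± 0.40 without (adjusted p = 0.496). Postn was between 31.1 and 201 CPM (median 62.0) without and between 22.5 and 156 CPM (median 36.9) with isoproterenol, lower in 9 of 9 pairs, with -0.61 ± 0.08 in the blocked model (adjusted p = 4.66e-05) and -0.53 ± 0.49 in the unblocked one (adjusted p = 0.756). As replicate 2 carries the high Postn values, the unblocked value depended on which library was left out, from -0.90 to -0.23, and was -0.75 without all of replicate 2 (adjusted p = 0.00632).

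Sparc, also known as osteonectin, stood at 632, 1064 and 968 CPM in unstimulated ctrlA, 756, 1253 and 1234 in LNA1 and 750, 1261 and 1198 in LNA2. In stimulated cells they were 498, 800 and 735 CPM in ctrlA, 579, 975 and 831 in LNA1 and 581, 1102 and 863 in LNA2. Each stimulated library was below its partner, and the unstimulated and stimulated ranges overlapped. The blocked log2 fold change was -0.39 ± 0.04 (SE, edgeR adjusted p = 1.24e-06), under the limit of 0.5, and the unblocked one -0.39 ± 0.18 (adjusted p = 0.316). Thrombospondins Thbs1 and Thbs2, which regulate adhesion and angiogenesis, had blocked log2 fold changes of 0.15 ± 0.06 and 0.25 ± 0.07, and Tnc, with 5 to 38 counts per library, 0.17 ± 0.23.

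Lysyl oxidases, Bgn and Mmp14 were not called in this comparison, with or without the block, against 7.00% and 3.20% of all genes. Lox, the main cross-linking enzyme of the group, stood at 147, 206 and 159 CPM in unstimulated ctrlA, 174, 195 and 146 in LNA1 and 139, 134 and 104 in LNA2. After stimulation they were 106, 158 and 131 CPM in ctrlA, 117, 153 and 164 in LNA1 and 99.5, 86.0 and 89.5 in LNA2. The stimulated library was lower in 8 of 9 pairs (log2 fold change -0.36 ± 0.11, edgeR adjusted p = 0.0869, and 0.00529 with the block). Loxl1, which acts on elastic fibres, was higher in 9 of 9 pairs (0.32 ± 0.07 with the block), while Loxl2 was higher in 5 of 9.

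Bgn, which encodes the proteoglycan biglycan, stood at 202, 183 and 160 CPM in unstimulated ctrlA, 207, 146 and 144 in LNA1 and 195, 153 and 131 in LNA2. The stimulated libraries held 158, 166 and 135 CPM in ctrlA, 155, 136 and 103 in LNA1 and 163, 167 and 114 in LNA2. The ranges overlapped, and the stimulated library was lower in 8 of 9 pairs (log2 fold change -0.23 ± 0.12, edgeR adjusted p = 0.426, and 0.00639 with the block). Mmp14 stood at 15.2, 25.1 and 25.1 CPM in unstimulated ctrlA, 16.6, 22.9 and 19.4 in LNA1 and 15.9, 22.9 and 22.3 in LNA2, and with isoproterenol at 20.4, 29.9 and 33.8 CPM in ctrlA, 19.96, 32.6 and 28.3 in LNA1 and 24.5, 42.3 and 32.2 in LNA2. It was higher in 9 of 9 pairs with overlapping ranges (log2 fold change 0.51 ± 0.16, adjusted p = 0.0858), and with the block its log2 fold change of 0.50 lay at the limit (adjusted p = 8.89e-06). The ratio of Mmp14 to its inhibitor Timp2 per kb was 0.408 ± 0.0764 without and 0.377 ± 0.104 with isoproterenol (SD, n = 9). The 3 pairs with a higher ratio under isoproterenol were those of LNA2 (0.281 and 0.283, 0.461 and 0.550, and 0.473 and 0.482), and the 6 pairs of ctrlA and LNA1 were lower. Of the 3 pairs of LNA2, that of replicate 3 differed most (0.461 and 0.550), and its stimulated library stood apart from replicate 4 of its group. This split by LNA was not tested.

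**Figure D4:**
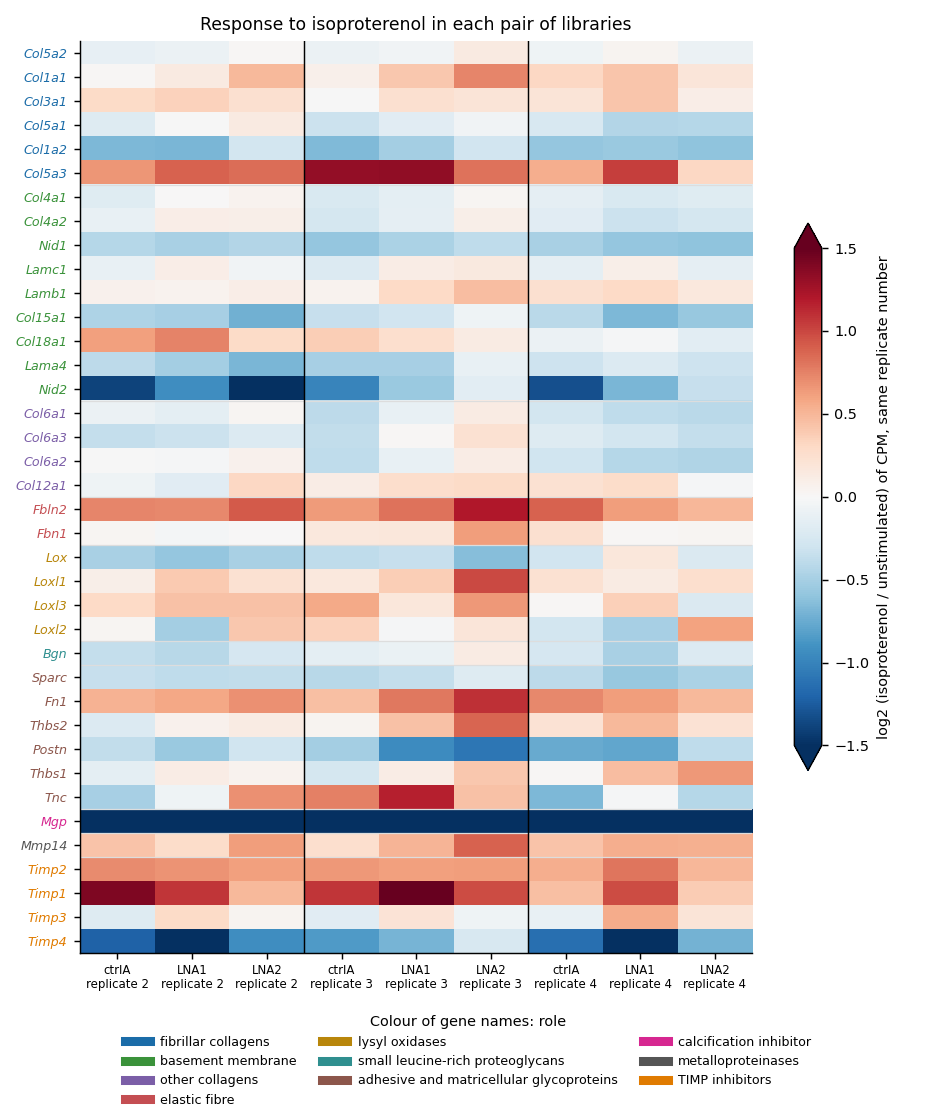
Log2 ratio of isoproterenol over unstimulated CPM for each tested matrix gene in the 9 pairs of libraries with the same LNA and replicate number, with the colour scale cut at 1.5 in either direction. Red stripes across all 9 columns mark the 9 genes higher in every pair, such as Timp2 and Fn1, and blue stripes the 9 genes lower in every pair, such as Mgp and Sparc.

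In all, 9 of the 38 genes were higher with isoproterenol in every one of the 9 pairs, against 8.40% of all genes: Col1a1, Col5a3, Lamb1, Fbln2, Loxl1, Fn1, Mmp14, Timp1 and Timp2. A further 9 were lower in every pair, against 6.91%: Col1a2, Col15a1, Nid1, Nid2, Lama4, Sparc, Postn, Mgp and Timp4. Collagen chains were in both sets, and the second held 4 of the 9 basement membrane genes. Marker genes of other cells moved in the same comparison. Ly6a, a progenitor marker, rose by 1.58 ± 0.41 (log2, SE, edgeR adjusted p = 0.0415) and Cd68, a lysosomal protein abundant in macrophages, by 0.90 ± 0.18 (adjusted p = 0.00618). The summed preadipocyte and fibroblast list was 42.6 to 59.1 CPM in unstimulated and 43.9 to 89.7 CPM in stimulated libraries, with Thy1 at most 2 counts, and 1 of its 5 tested genes was called. The leukocyte list was 8.23 to 28.6 and 12.2 to 44.3 CPM, with 1 of 2 tested genes called and Adgre1 at most 2 counts. The smooth muscle and pericyte list was 18.03 to 34.8 and 8.50 to 27.4 CPM, with 0 of 3 tested genes called by edgeR or DESeq2 (1 at an unadjusted p under 0.05 by edgeR), and the chondrocyte and osteoblast list 7.26 to 24.9 and 11.6 to 31.8 CPM, with 0 of 2 called by either (0 at an unadjusted p under 0.05 by edgeR). Of the 7 adipocyte markers 1 was called, Adipoq, which fell by 0.71 on the log2 scale (adjusted p = 0.0073). The adipocyte list summed to 17220 to 28468 CPM in unstimulated and 14052 to 21955 CPM in stimulated libraries. The brown adipocyte list summed to 292 to 453 CPM in unstimulated and 370 to 579 CPM in stimulated ones. With the block Ly6a, Cd68 and Adipoq were called as well, and so were Myh11 of the smooth muscle list (-0.65 ± 0.14, edgeR adjusted p = 0.0024) and Sox9 of the chondrocyte list (0.57 ± 0.10, adjusted p = 0.00049). Ribosomal RNA took 5.80, 14.3 and 8.31% of counts in unstimulated replicate 2 libraries of ctrlA, LNA1 and LNA2. In their stimulated partners it took 3.61, 7.44 and 2.88%. In replicates 3 and 4 it was at most 1.04%, higher in some stimulated libraries than in their partners and lower in others. The part of these shifts in the matrix genes was not tested.

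The sequences upstream of 4 genes are shown for elements of the adrenergic response, in which cAMP-activated factors bind the cAMP response element (CRE). They are the genes that were called for isoproterenol over the 3 LNAs with the block and have a RefSeq promoter entry whose 250 bases before the start hold no annotated exon. Of the 2 entries of Postn, the one nearer its annotated start is shown. Each is read on the strand of its gene from RefSeq on GRCm38.p6, and capitals mark matches to the motifs named after them. Timp1 lies at chrX:20869916-20870165 (plus), Timp4 at chr6:115252206-115252455 (minus), Col5a3 at chr9:20815068-20815317 (minus) and Postn at chr3:54360857-54361106 (plus).
Timp1: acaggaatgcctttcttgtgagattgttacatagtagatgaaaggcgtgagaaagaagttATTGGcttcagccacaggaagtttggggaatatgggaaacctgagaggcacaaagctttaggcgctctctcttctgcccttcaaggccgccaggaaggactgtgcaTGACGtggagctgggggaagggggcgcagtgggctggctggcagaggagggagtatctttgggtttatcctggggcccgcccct
Timp4: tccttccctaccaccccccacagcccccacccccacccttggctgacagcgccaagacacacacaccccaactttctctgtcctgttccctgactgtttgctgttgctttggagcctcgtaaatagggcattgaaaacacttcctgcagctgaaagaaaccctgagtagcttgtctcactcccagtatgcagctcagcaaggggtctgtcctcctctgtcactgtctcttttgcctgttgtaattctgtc
Col5a3: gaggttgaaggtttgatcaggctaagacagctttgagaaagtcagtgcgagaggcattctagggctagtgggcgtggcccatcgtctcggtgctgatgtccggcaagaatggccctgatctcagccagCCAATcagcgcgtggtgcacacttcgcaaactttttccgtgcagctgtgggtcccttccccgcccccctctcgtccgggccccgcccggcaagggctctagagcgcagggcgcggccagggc
Postn: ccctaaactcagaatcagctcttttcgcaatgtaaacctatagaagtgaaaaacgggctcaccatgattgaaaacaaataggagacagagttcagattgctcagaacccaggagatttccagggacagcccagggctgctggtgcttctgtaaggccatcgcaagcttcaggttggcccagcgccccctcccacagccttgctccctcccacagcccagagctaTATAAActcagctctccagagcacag

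Promoter entries were held for 27 of the 44 genes, with 32 promoters among them. The full CRE (TGACGTCA, the same on both strands) was in 0 of the 32, against 1.55% of the 32851 promoters of the table. The shorter core site (TGACG or CGTCA, which is part of the full CRE) was in 1 of the 32, that of Timp1, at bases 84 to 80 before the start, against 17.8%. The CCAAT box (CCAAT or ATTGG) was in 11 of the 32, among them those of Timp1, Timp2, Col5a3 and Col1a2, against 33.8%. The AP-1 site (TGAGTCA or TGACTCA) was in 1 of the 32, that of Col6a1, against 4.46%, and TATAAA on the strand of the gene was in 4 of the 32, against 7.59%. The 4 belong to Col3a1, Postn (bases 26 to 21 before the start) and Tnc. A match describes the letters only, and its absence says nothing of sites outside this window.

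Within single LNA conditions (3 libraries against 3), the unblocked model called 0 of the 38 genes for isoproterenol in ctrlA cells (0.488% of all genes), 1 in LNA1 cells (0.702%) and 0 in LNA2 cells (0.395%). At an unadjusted p under 0.05 edgeR gave 5 of the 38 in ctrlA cells, against 5.43% of all genes, and 7 in LNA2 cells, against 5.99%. DESeq2 called 1, 2 and 1 of them, against 1.15%, 1.53% and 1.03% of all genes. The 1 called by edgeR was Timp2 in LNA1 cells, with 0.69 ± 0.14 (log2, SE, edgeR adjusted p = 0.0337). It was no longer called on leaving out any of the 6 LNA1 libraries, replicate 3 of unstimulated LNA2 or replicate 4 of unstimulated ctrlA (adjusted p up to 0.190, without unstimulated LNA1 replicate 4), nor with no filter on low counts (adjusted p = 0.302) or with glmTreat. With the block 10, 10 and 9 genes were called in ctrlA, LNA1 and LNA2 cells, against 4.03%, 5.04% and 4.25% of all genes. In fits that left out 1 library these counts were 6 to 10, 9 to 11 and 6 to 11. The blocked call of Col5a3 in LNA2 cells stood in 3 of 18 such fits (edgeR adjusted p up to 0.233). That of Nid2 in ctrlA cells stood in 6 of 18 (edgeR adjusted p up to 0.264). Mgp fell by 2.28, 2.94 and 2.30 in the 3 conditions, Fbln2 rose by 0.75, 0.72 and 0.89, Timp1 rose by 1.03, 1.16 and 0.62, Fn1 rose by 0.57, 0.67 and 0.76, and Timp2 rose by 0.63, 0.69 and 0.58 (log2, blocked model, all called). Leaving out 1 library ended the blocked call of Timp1 in LNA2 cells in 3 of 18 fits, those without replicate 2 or 3 of unstimulated or replicate 3 of stimulated LNA2 (fold change down to 0.47, edgeR adjusted p up to 0.166). It ended that of Fn1 in ctrlA cells without stimulated ctrlA replicate 4 (0.46, adjusted p = 0.0627) and that of Timp2 in LNA2 cells without stimulated LNA2 replicate 2, where the fold change was 0.498. Timp4 was called with the block in ctrlA (-1.06) and LNA1 cells (-1.39) but not in LNA2 cells (-0.65, edgeR adjusted p = 0.151). Its call in ctrlA cells stood in 13 of 18 fits without 1 library (edgeR adjusted p up to 0.112). Col1a2 was likewise called in ctrlA (-0.64) and LNA1 cells (-0.58) but not in LNA2 cells (-0.39, edgeR adjusted p = 0.0675). Postn was called in each condition (-0.53, -0.74 and -0.56). Its blocked call was lost in ctrlA cells without replicate 3 or 4 of unstimulated or replicate 2 or 4 of stimulated ctrlA (edgeR adjusted p up to 0.171), and in LNA2 cells without the same 3 libraries as for Timp1 (fold change down to -0.36, adjusted p up to 0.134). In the unblocked model its direction turned, to 0.23 in ctrlA, 0.20 in LNA1 and 0.39 in LNA2 cells, when the unstimulated replicate 2 library of that LNA was left out.

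The difference of the isoproterenol response between a targeting LNA and ctrlA was tested as an interaction. Of the 38 genes, 0 passed for LNA1 and 0 for LNA2, as did 0% of all genes tested by edgeR with or without the block. At an unadjusted p under 0.05 edgeR gave 0 and 0 of the 38 genes without the block, against 0.702% and 0.776% of all genes. With the block it gave 1 (Thbs1) and 3 (Mmp14, Thbs1 and Thbs2), against 2.63% and 5.40%. DESeq2 called 0 and 0, against 0.0134% of all genes for each LNA, and gave 0 and 1 (Thbs1) at an unadjusted p under 0.05, against 0.535% and 0.615%. On the log2 scale the fitted differences lay between -0.73 and 0.50 with LNA1, and between -0.47 and 0.84 with LNA2. A difference in response between either targeting LNA and ctrlA was thus not detectable for these genes, and the responses of LNA1 and LNA2 cells were not tested against each other.

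LNA1 against ctrlA, averaged over stimulation (6 libraries against 6), gave 0 called genes of the 38, against 0.442% of all genes (edgeR, with 3 of the 38 at an unadjusted p under 0.05, against 6.01%), and DESeq2 called 1, against 0.903%. With the block 3 were called, against 2.43%. Nid2 rose by 0.99 ± 0.22 (log2, SE, edgeR adjusted p = 0.012). It lay between 0.152 and 4.57 CPM in ctrlA (median 2.01) and between 0.887 and 6.83 CPM in LNA1 (median 4.04), with overlapping ranges. Timp3 had a log2 fold change of -0.60 ± 0.14 (edgeR adjusted p = 0.0157). It was between 6.54 and 12.8 CPM in ctrlA (median 7.78) and between 4.58 and 6.77 CPM in LNA1 (median 6.08), with ranges that overlapped slightly, and 1733 of its exon bases overlap Syn3 on the opposite strand. Postn had -0.52 ± 0.10 (edgeR adjusted p = 0.00528). Without the block the log2 fold changes were 0.86 ± 0.71 for Nid2, -0.61 ± 0.16 for Timp3 (edgeR adjusted p = 0.185) and -0.43 ± 0.59 for Postn. Without the replicate 2 libraries and with no block, 0 of the 38 genes were called, against 180 of all 14949 genes. The blocked call of Timp3 was lost without replicate 3 of stimulated LNA1, of unstimulated ctrlA or of stimulated ctrlA (edgeR adjusted p up to 0.0582, or a fold change inside the limit), and that of Postn without any one of those 3 or unstimulated ctrlA replicate 4, where the fold change was -0.47 to -0.49. Nid2 was higher in 6 of 6 pairs, as were 7.91% of all genes, and Timp3 and Postn were lower in 6 of 6, as were 12.1%. The median log2 fold change of the 38 genes was -0.05, beside -0.02 for all genes.

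LNA2 against ctrlA gave 1 called gene by edgeR, against 1.42% of all genes, and 2 by DESeq2, against 2.27%. Loxl3 (chr6:83034173-83052562, plus strand), a member of the lysyl oxidase family, stood at 6.01, 4.83 and 5.55 CPM in unstimulated ctrlA, 6.28, 7.81 and 5.90 in LNA1 and 7.35, 7.87 and 9.31 in LNA2. With isoproterenol it stood at 7.37, 7.14 and 5.62 CPM in ctrlA, 8.52, 8.80 and 7.55 in LNA1 and 9.97, 12.3 and 7.99 in LNA2. The LNA2 library was above the ctrlA library in 6 of 6 pairs, as for 9.91% of all genes, with ranges that met at 7.35 and 7.37 CPM, and LNA1 lay in between. The rise with LNA2 was 0.58 ± 0.13 (log2, SE, edgeR adjusted p = 0.041, and 0.00224 with the block). It was not called with no filter on low counts (0.57, edgeR adjusted p = 0.315) or with glmTreat. The unblocked call was kept in 5 of 18 fits that left out 1 library, those without stimulated ctrlA replicate 2, unstimulated LNA1 replicate 2 or 3, unstimulated LNA2 replicate 2 or stimulated LNA2 replicate 4, and in the others the adjusted p reached 0.135 (edgeR). With the block it was lost only without unstimulated LNA2 replicate 4, where the fold change was 0.48. Of its exon bases, 535 overlap Htra2 on the opposite strand, and without knowledge of the strand setting the reads of the 2 genes cannot be told apart. For LNA1 the log2 fold change of Loxl3 was 0.29 ± 0.13 (adjusted p = 0.804).

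With the block 4 genes were called for LNA2, against 5.53% of all genes: Loxl3 rose, and Col3a1, Postn and Mgp fell. Col3a1, the chain of type III collagen, was between 155 and 284 CPM in ctrlA (median 231) and between 110 and 190 CPM in LNA2 (median 145), lower in 6 of 6 pairs, as were 12.1% of all genes. Its log2 fold change was -0.62 ± 0.06 with the block (SE, edgeR adjusted p = 7.51e-06) and -0.63 ± 0.20 without (adjusted p = 0.185), and for LNA1 the blocked value was -0.13 ± 0.06 (adjusted p = 0.225). Postn had -0.79 ± 0.10 with the block (adjusted p = 7.68e-05) and -0.69 ± 0.60 without (edgeR adjusted p = 0.855). Mgp had -0.50 ± 0.17 (adjusted p = 0.0421), a call that stood in 4 of 18 fits without 1 library and reached an adjusted p of 0.280 without stimulated ctrlA replicate 2. Without the replicate 2 libraries and with no block, 6 genes were called, against 4.90%: Loxl3 rose, and Col1a2, Col3a1, Col12a1, Lox and Postn fell. The log2 fold changes of the 6 fibrillar collagen chains for LNA2 lay between -0.63 and -0.05 without the block, where 0 were called, and between -0.62 and 0.01 with it, where Col1a1 was the one above 0. The unblocked median of the 38 genes was -0.15, beside -0.02 for all genes. Sparc was higher in 6 of 6 pairs with either targeting LNA, as were 7.91% of all genes with LNA1 and 9.91% with LNA2 (blocked log2 fold changes 0.25 ± 0.05 for LNA1 and 0.29 ± 0.05 for LNA2, both under the limit of 0.5). Both comparisons share the ctrlA libraries. Of the marker lists of other cells, the preadipocyte and fibroblast list had 1 of 5 tested genes called for LNA2, Pdgfra (0.71 ± 0.13, edgeR adjusted p = 0.0121). The leukocyte list had 0 of 2 called by edgeR, with both at an unadjusted p under 0.05, and 1 called by DESeq2. Its gene Cd68 averaged 14.2 CPM in ctrlA and 25.6 CPM in LNA2. Of the smooth muscle, endothelial and chondrocyte lists, 0 of 3, 0 of 1 and 0 of 2 tested genes were called by edgeR or DESeq2, with 1, 0 and 1 at an unadjusted p under 0.05 by edgeR. With the block 2 of the 5 preadipocyte and fibroblast genes were called (Pdgfra and Ly6a), both leukocyte genes (Cd68 and Csf1r), 1 smooth muscle gene (Myh11, higher), 0 of 1 endothelial and 1 chondrocyte and osteoblast gene (Runx2, lower). Their part in these values was not tested.

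**Figure D5:**
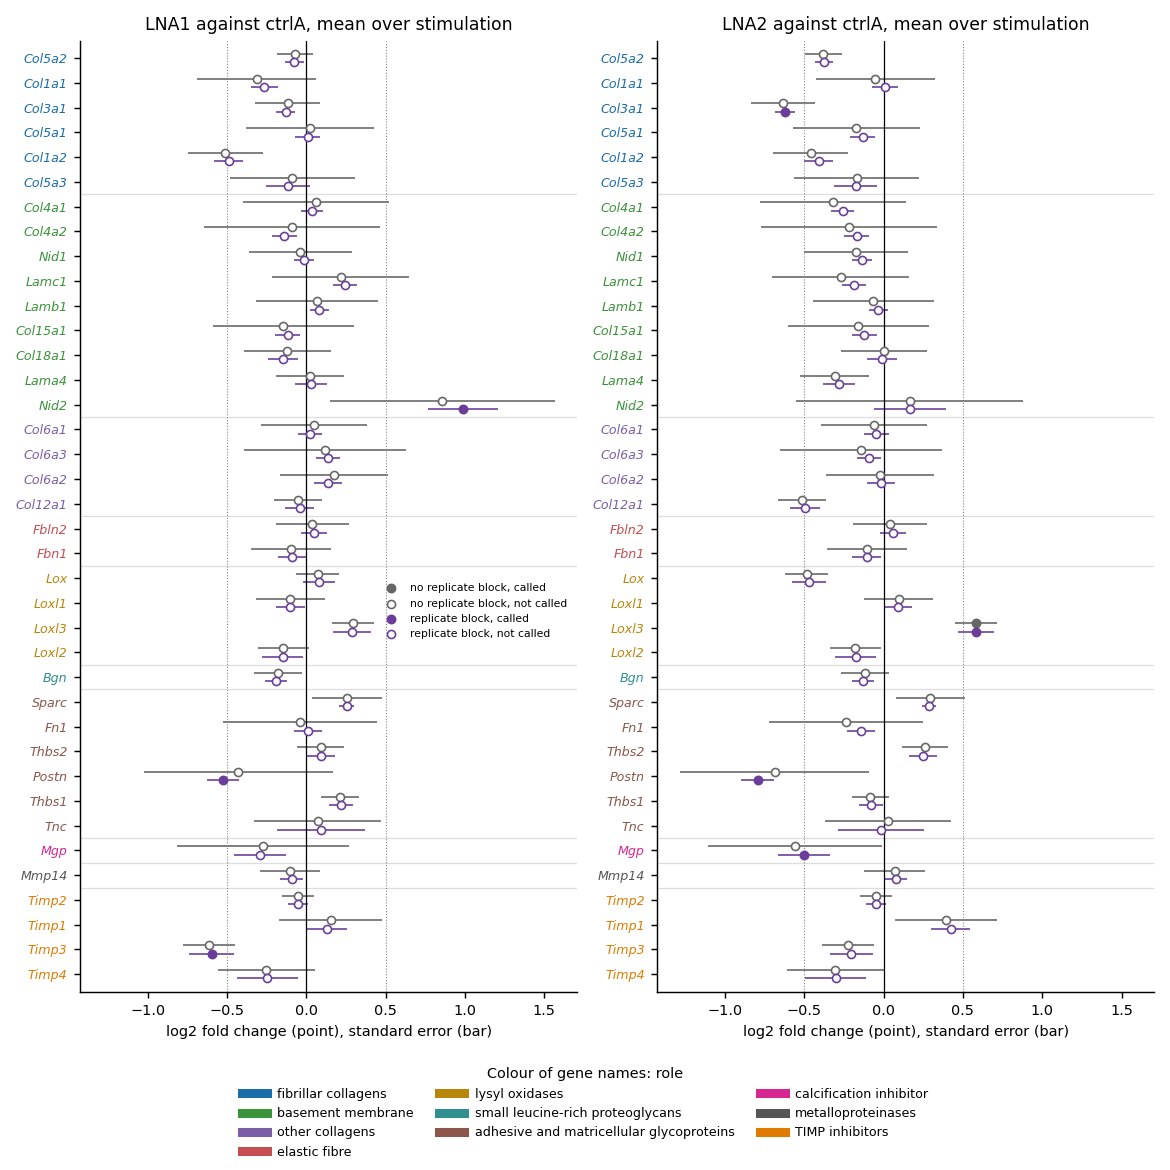
Log2 fold changes of the tested matrix genes for LNA1 (left) and LNA2 (right) against ctrlA, averaged over stimulation, with standard errors as bars, without and with the replicate block. Filled points mark called genes. Loxl3 with LNA2 at 0.58 is the one gene filled in both models, and the unblocked bars of Nid2 and Postn are the widest.

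Between the 2 targeting LNAs, LNA2 against LNA1, 0 of the 38 genes were called without the block, against 0.923% of all genes (edgeR, with 7 at an unadjusted p under 0.05, against 1375 of all 14949 genes), and DESeq2 called 1, against 1.57%. With the block 2 were called, against 4.11%, and without replicate 2 and with no block 4, against 2.92%: Col3a1, Lamc1, Col12a1 and Lox. Lox fell with a blocked log2 fold change of -0.55 ± 0.10 (edgeR adjusted p = 0.00244), from 158 ± 26.7 CPM in LNA1 to 109 ± 22.6 CPM in LNA2 (SD, n = 6), with ctrlA at 151 ± 33.6 CPM. Nid2 had -0.82 ± 0.22 with the block (edgeR adjusted p = 0.0191) and -0.69 ± 0.70 without (edgeR adjusted p = 0.970). Both were lower with LNA2 in 6 of 6 pairs, as were 10.9% of all genes. The blocked call of Lox was lost without stimulated LNA1 replicate 4, unstimulated LNA2 replicate 4 or stimulated LNA2 replicate 3, where its fold change was -0.46 to -0.49, and that of Nid2 without unstimulated LNA2 replicate 4 (adjusted p = 0.0607). Lamc1 and Thbs1 were also lower in 6 of 6 pairs (blocked log2 fold changes -0.43 ± 0.08 and -0.30 ± 0.08).

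Any difference among the 6 groups was also tested at once, with a limit on the adjusted p of 0.001. This called 0 of the 38 genes, against 0.455% of all genes (edgeR, with 9 at an unadjusted p under 0.05, against 11.3%), and DESeq2 called 3, against 3.72%. With the block it called 12, against 8.93%: Col1a2, Col3a1, Col5a3, Nid1, Fbln2, Fn1, Sparc, Postn, Mgp, Mmp14, Timp1 and Timp2.

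Genes that build, bind or cut the matrix but are not among the 44 also changed with isoproterenol. Of 20 tested genes of collagen processing, 2 rose and 0 fell, against 3.20% of all genes called: P4ha3, a collagen prolyl hydroxylase subunit, by 1.21 ± 0.20 (log2, SE, edgeR adjusted p = 0.0022), and Adamts2, which trims the ends of procollagen, by 0.80 ± 0.11 (adjusted p = 0.000321). Of 19 tested matrix receptors, 2 rose and 1 fell. Itga5, the fibronectin receptor subunit, rose by 0.85 ± 0.17 (adjusted p = 0.00842), from a mean of 59.8 to 108 CPM, the syndecan Sdc3 rose by 0.79 ± 0.21 (adjusted p = 0.0496), and Itga1, a collagen receptor subunit, fell by 0.64 (SE 0.12, edgeR adjusted p = 0.00523). Of 20 other proteases and inhibitors, 1 rose and 2 fell. Adamts4, a proteoglycan-cutting enzyme, rose by 1.83 ± 0.19 (adjusted p = 2.22e-05), from 5.34 to 18.7 CPM, while Adamts12 fell by 1.13 (SE 0.26, adjusted p = 0.0181) and Adamts5 by 0.73 (SE 0.13, adjusted p = 0.00278).

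Of 35 other tested matrix proteins, 5 rose and 2 fell with isoproterenol, against 3.20% of all genes called. Has1, a hyaluronan synthase, rose by 1.63 ± 0.20 (log2, SE, edgeR adjusted p = 0.000181) and Tgfbi, an adhesion protein induced by TGF-β, by 1.52 ± 0.14 (adjusted p = 7.6e-06), from 14.1 to 40.5 CPM. The collagen IV chain Col4a6 fell by 0.92 (SE 0.13, edgeR adjusted p = 0.000665). With the block 2, 5, 5 and 18 genes of these 4 lists were called, against 7.00% of all genes. For LNA2 against ctrlA, where 1.42% of all genes were called, the unblocked model called Ccn2, a matricellular growth factor (1.35 ± 0.26, adjusted p = 0.0158), 1 other matrix protein and Itgb3, an integrin subunit that binds vitronectin and fibronectin (1.53 ± 0.32, adjusted p = 0.0239). Of the 4 lists, LNA1 against ctrlA called 0 genes by edgeR without the block, against 0.442% of all genes, where 8 reached an unadjusted p under 0.05 (6.01% of all genes), and 7 with it, against 2.43%.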

How the data were processed

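Poly(A) RNA of 18 libraries was sequenced as read pairs. The authors trimmed the reads with cutadapt and quantified transcripts with salmon (processing notes also name bcl2fastq and DESeq2, with no versions), and deposited 1 table of estimated counts per gene, all whole numbers. The transcriptome was GENCODE M22 (GRCm38), alone or together with RNAcentral, which of the 2 is not given for this table. The strand setting is not given in the sources used here. Without strand, a gene can carry reads of a partner that overlaps it.

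Groups were taken from the labels. Genes were filtered with filterByExpr (minimum count 10, minimum total 15), which left 14949 of 54347 genes, and scaled by TMM factors. edgeR's quasi-likelihood test was fitted with 1 term per group over all 18 libraries, with Benjamini-Hochberg adjustment over all genes tested, and DESeq2 was an alternative (R 4.3.3, edgeR 4.0.16, limma 3.58.1, DESeq2 1.42.0; Python 3.11.15, pandas 2.3.3, scipy 1.17.1, matplotlib 3.10.9). Fits were tested on simulated data. A call needed an adjusted p below 0.05 and an absolute log2 fold change above 0.5 (no fold limit for interactions, and an adjusted p below 0.001 for the joint test). Exon lengths and coordinates came from GENCODE M21, which held 99.53% of the genes.

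Same-numbered libraries deviated together from their group means in all 45 pairs of groups and numbers (correlation 0.240 to 0.722). The replicate number was therefore treated as pairing the samples and added as a block. Replicate 2 stood apart in every group, and deviations from a group mean cancel out. Positive correlations for replicates 3 and 4 thus follow in part from replicate 2. Between replicates 3 and 4 alone the differences correlated above 0.1 in 6 of 15 pairs of groups (-0.07 to 0.34). A matching of 3 with 3 and of 4 with 4 was thus not established. The counts of pairs with the same number rest on that matching. Of 18 pairs of replicates 0 were identical, and their counts differed by more than sampling noise (chi-square per degree of freedom 4.315 to 176.979). Floors cover counting error only, while standard errors and SDs also hold the spread between libraries.

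Members and lists were chosen with earlier results of these data known. Values in every library are given for Mgp, for members called without the block and for the member of highest mean CPM in each role, with summaries for members called with the block. Of each other list at most 4 called genes of largest change are named, and of each marker list the gene of highest mean. The remaining genes named, such as Adipoq and Pdgfra, were chosen after their values were seen. Alternatives were RLE scaling, no low-count filter, no fold limit, glmTreat, DESeq2, the block, leaving out each library, and replicates 3 and 4 alone. The last with the block, leaving out libraries with the block, and the block with no low-count filter for Gm15551 were chosen after seeing the data.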

Additional observations from a re-analysis of the deposited data

How the results depend on the processing

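With RLE scaling in place of TMM, each of the 48 single-gene results kept its direction and its side of the threshold, as did 44 of 48 with no filter on low counts (2 gained and 2 lost a call). The 48 are the results called with the replicate block, and 6 of them were also called without it. Numbers of the 38 genes called, and the percentages of all genes called, are given in the order isoproterenol over all LNAs, LNA1, LNA2 and LNA2 against LNA1, then isoproterenol in ctrlA, LNA1 and LNA2 cells, then the joint test. edgeR gave 4, 0, 1, 0, 0, 1, 0 and 0, against 3.20, 0.442, 1.42, 0.923, 0.488, 0.702, 0.395 and 0.455% of all genes. With the replicate block it gave 10, 3, 4, 2, 10, 10, 9 and 12, against 7.00, 2.43, 5.53, 4.11, 4.03, 5.04, 4.25 and 8.93%. DESeq2 gave 6, 1, 2, 1, 1, 2, 1 and 3, against 4.22, 0.903, 2.27, 1.57, 1.15, 1.53, 1.03 and 3.72%. DESeq2 with the block gave 11, 3, 3, 2, 10, 10, 9 and 25, against 6.62, 2.29, 4.90, 3.85, 4.01, 4.84, 4.11 and 19.1%. Replicates 3 and 4 alone gave 12, 0, 6, 4, 1, 5, 4 and 1, against 4.85, 1.20, 4.90, 2.92, 1.33, 2.19, 1.36 and 0.763%. With the block, an alternative chosen after seeing the data, these 2 replicates gave 12, 3, 6, 5, 6, 9, 5 and 2, against 5.08, 1.49, 5.45, 3.39, 2.11, 2.98, 1.95 and 0.990%. A test against the fold limit itself (glmTreat) gave 1 for isoproterenol (0.957%) and 0 for LNA2 (0.234%) and for isoproterenol in LNA1 cells (0.314%), and no filter on low counts gave 0 for LNA2 (0.426%). The cause of these differences was not tested.

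Leaving out 1 library in turn gave 3 to 5 genes for isoproterenol, 0 to 2 for LNA2, 0 to 1 for LNA2 against LNA1 and 0 to 1 for isoproterenol in ctrlA and in LNA1 cells. In the fit with the replicate block it gave 10 to 12 for isoproterenol, 1 to 4 for LNA1, 2 to 5 for LNA2, 0 to 4 for LNA2 against LNA1, 6 to 10 for isoproterenol in ctrlA cells, 9 to 11 in LNA1 and 6 to 11 in LNA2 cells. Postn turned direction without the block when the unstimulated replicate 2 library of the LNA concerned was left out: its isoproterenol log2 fold change ran from -1.27 to 0.23 in ctrlA, from -1.73 to 0.20 in LNA1 and from -1.60 to 0.39 in LNA2 cells. The summed level of the 44 genes differed by a mean log2 ratio of -0.13 with isoproterenol, and by -0.12 with plain library totals, where 2 of 9 pairs were higher in place of 1. Low counts limited the tests: Gm15551 and 6 of the 44 genes did not pass the filter on low counts, and Gm15551 was tested only without that filter.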
